A study of Mus musculus with 16 samples.

Results

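The data set out here are the retinal transcriptomes of Nxnl1 knockout mice exposed to light of 5000 lux, set against those of knockout mice kept at 50 lux. The arrays were chosen by their labels alone: 2 arrays of Nxnl1-/- retina at 5000 lux and 3 of Nxnl1-/- retina at 50 lux, together 5 of the 16 arrays in the series. All mice were BALB/c, an albino strain, aged 11 to 16 weeks, and the labels give males and females in equal proportion. On 5000 lux replicate 1, however, the Y-linked genes measured were dark, as set out below. The mice were raised in a cycle of 50 lux light and darkness. Dark adaptation for 16 h came first, then 1 h of white fluorescent light, then 24 h of recovery in the dark, after which the neural retina was dissected away from the pigment epithelium. Both groups carried the same deletion, so the 50 lux retinas are a control for light and not for genotype. The other arrays of the series were Nxnl1-/- retinas at 2500 lux (3) and Nxnl1+/+ (wild-type) retinas at 5000 lux (3), 2500 lux (3) and 50 lux (2). The sources used here do not say whether an array held the RNA of 1 animal or of a pool, and p-values measure the spread between the labelled biological replicates.

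Nxnl1 encodes a protein of the thioredoxin family whose short form, the rod-derived cone viability factor, is secreted by rods and keeps cones alive. Bright light damages photoreceptors of albino rodents, and the Müller glia that span the retina answer such injury: cytokines of the interleukin-6 family bind receptors that share the subunit gp130, STAT3 is phosphorylated, and STAT3 targets such as Socs3 and Gfap are switched on. Interferon signalling switches on genes whose promoters carry an interferon-stimulated response element. Damaged photoreceptors also release endothelin 2, which signals to the endothelin receptor on Müller glia.

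To show the promoter stretches behind these pathways, sequence upstream of the gene start was taken from the RefSeq table for mouse assembly GRCm38.p6, in windows running from 250 bases before to 50 bases after each start. The motif of STAT dimers (TTCNNNGAA) and the core of the interferon response element (a pair of GAAA words with any 2 bases between them) were searched on both strands. Socs3 was chosen as a STAT target among the largest rises, and Bst2, Gbp2, Ifit3 and B2m as interferon-inducible genes among those that rose. By rule, a stretch was printed only where its motif lay upstream of the gene start. Each line gives 120 bases 5′ to 3′ on the gene's strand, with the motif of that choice in capitals.
Socs3, chr11:117969457-117969576, minus strand: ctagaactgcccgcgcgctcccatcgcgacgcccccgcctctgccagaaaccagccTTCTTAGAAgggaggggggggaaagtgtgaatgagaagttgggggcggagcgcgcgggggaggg
Bst2, chr8:71537535-71537654, minus strand: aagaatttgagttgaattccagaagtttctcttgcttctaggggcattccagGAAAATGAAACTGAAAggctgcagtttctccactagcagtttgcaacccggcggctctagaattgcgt
Gbp2, chr3:142620543-142620662, plus strand: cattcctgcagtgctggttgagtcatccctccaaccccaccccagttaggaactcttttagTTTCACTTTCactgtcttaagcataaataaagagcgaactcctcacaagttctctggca
Ifit3, chr19:34583335-34583454, plus strand: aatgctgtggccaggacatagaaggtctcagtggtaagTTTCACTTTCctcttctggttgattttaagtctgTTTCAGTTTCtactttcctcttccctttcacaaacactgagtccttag
B2m, chr2:122147493-122147612, plus strand: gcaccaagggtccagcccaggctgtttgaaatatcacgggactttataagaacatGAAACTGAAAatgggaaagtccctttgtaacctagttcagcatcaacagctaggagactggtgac
The Socs3 stretch held 1 STAT motif, starting 154 bases upstream of the gene start. The Bst2 stretch held 2 interferon motifs that overlap, at 130 and 124 bases, and a STAT motif, not in capitals, that starts at 136 bases and overlaps the first of them. The Ifit3 stretch held 2 that lie apart, at 156 and 122 bases. Gbp2 and B2m held 1 each, at 59 and 139 bases. Across windows, the interferon motif was found in 9 of the 16 members of the interferon response list that were measured and had a window (56.2%). Among complement and class I members it was in 2 of 8 such genes (25%, B2m and Psme1). Of the 27025 genes with a window 3.99% held it. The STAT motif was found in 4 of the 16 genes with a window among the 20 largest rises (25%), namely Nupr1, Prss56, Socs3 and Steap4. It was in 0 of 15 among the 20 largest falls, and in 9.55% of all genes with a window. It was in 2 of 20 glial reactivity genes with a window (10%, Gfap and Socs3) and in 6 of the 16 interferon genes (37.5%). Of the further motifs searched, AP-1 (TGANTCA) was in 6 of the 16 interferon genes (37.5%), against 8.97% of all genes with a window. It was also in 3 of 15 of the largest falls and 2 of 10 rod genes (20% each). Of 12 immediate early and AP-1 genes 0 held it. C/EBP (TTGCNNAA) was in 18.8% of the largest rises and 13.3% of the largest falls, against 12.2% of all. CRX (CTAATCC) was in 1 of 10 rod and 1 of 16 interferon genes, against 2.34% of all. NF-κB was in 1 of 8 complement and class I genes (B2m) and 1 of 15 of the largest falls, against 0.466% of all. A match describes these letters in this window only.

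Levels below are log2 of the deposited GCRMA intensity. Changes are differences of these levels, 5000 minus 50 lux, with the fit's standard error (SE). Nxnl1 itself was dark in these retinas: its brighter probe set stood at 2.21 and 2.92 at 5000 lux and at 2.24 on all 3 arrays at 50 lux, while the wild-type arrays at these light levels ran from 5.64 to 7.61. The sources used here do not say whether its probes lie in the deleted part. Nxnl2, the related gene, stood at 11.06 and 10.93 at 5000 lux, against 10.91, 10.82 and 10.88 at 50 lux (log2 difference 0.13, adjusted p = 0.49). The tissue label held: the 14 rod markers measured had a mean level of 12.5 on each 5000 lux array and of 12.7 to 12.9 at 50 lux.

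The 2 arrays at 5000 lux differed over 2-fold at more probe sets than any other pair of replicates in the series: 1544 of the 23320 tested, against 40 to 962 for the 13 other pairs. Their median absolute log2 difference was 0.273, against 0.102 to 0.275 for the others, with the highest between replicates 1 and 3 at 50 lux. The crystallins, lens proteins that retinal cells also make, separated them as a group. The 11 measured of 16 had a mean level of 3.88 on replicate 1 and 8.58 on replicate 2, against 9.22, 7.48 and 6.62 at 50 lux. Their means also spread in other groups: 4.48, 8.58 and 4.54 in knockout at 2500 lux and 3.35, 12.8 and 4.20 in wild type at 5000 lux. Wild-type arrays at 2500 and 50 lux ran from 3.35 to 4.31. The Y-linked genes Eif2s3y, Kdm5d and Uty were dark on replicate 1, where Xist was brightest: Eif2s3y had levels of 2.21 and 9.99 on replicates 1 and 2, and Xist of 12.48 and 9.80. All 3 arrays at 50 lux gave both signals, Eif2s3y at 7.59, 7.76 and 8.31 and Xist at 11.04, 11.44 and 11.60. The mean of the 4 sex-linked genes measured was 4.85 and 8.80 on the 5000 lux replicates. That mean also spread in knockout at 2500 lux (6.89, 4.64 and 4.75) and in wild type at 50 lux (4.71 and 8.64) and 2500 lux (4.67, 8.28 and 7.53). In wild type at 5000 lux it ran from 7.74 to 8.65. The part of sample makeup in the results below was not tested, and the counts of the main lists are therefore also given with each 5000 lux array alone, where the lone array is assumed to vary like the other groups.

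Of 10916 genes tested, each through its brightest probe set, 502 rose (4.60%) and 852 fell (7.81%) at an adjusted p of 0.05. With replicate 1 alone 212 rose and 112 fell (1.94% and 1.03%), and with replicate 2 alone 544 rose and 1299 fell (4.98% and 11.9%). Both single-array fits called 286 genes in the same direction, 195 higher and 91 lower. The 2 fits share all other arrays, those at 50 lux among them, so they are not independent. Leaving out 50 lux replicate 1, 413 rose and 414 fell (3.78% and 3.79%). Leaving out 50 lux replicate 2, 420 rose and 891 fell (3.85% and 8.16%). Leaving out 50 lux replicate 3, 458 rose and 695 fell (4.20% and 6.37%). Over probe sets, 1291 rose and 1372 fell of 23320 (5.54% and 5.88%). Of the genes that rose 241 changed over 2-fold, and of those that fell 152 did. The median over all genes was -0.09, with 62.8% of genes below 0, and the list medians below stand against that value. Among the genes that rose, the median difference from the 50 lux mean was 0.91 on replicate 1 and 1.02 on replicate 2, and among those that fell it was -0.60 and -0.79.

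**Figure D1:**
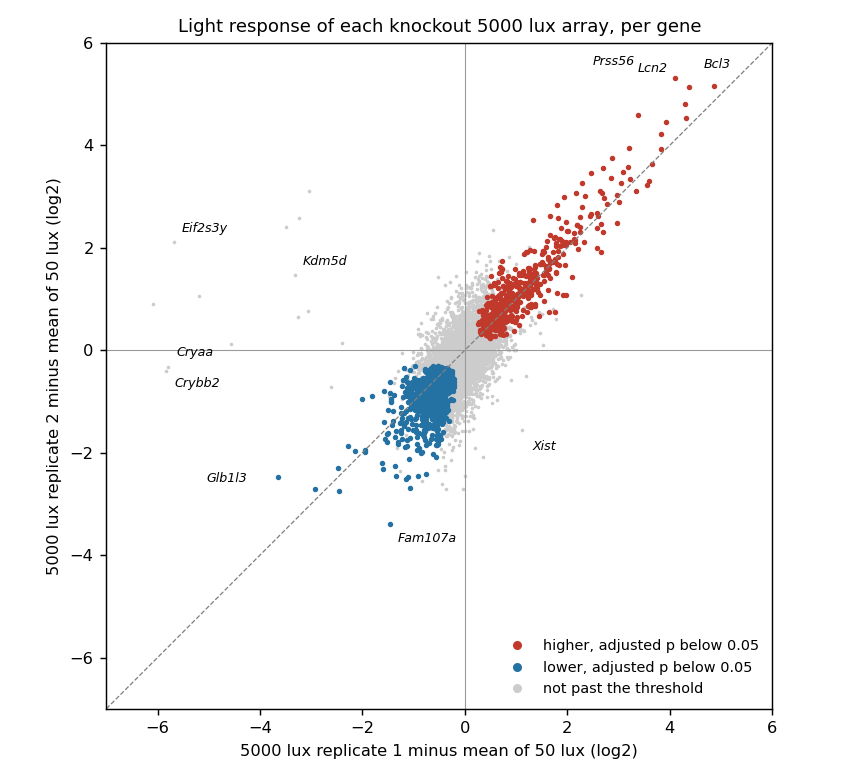
Log2 difference of each gene from the mean of the 3 knockout 50 lux arrays, for 5000 lux replicate 1 (horizontal axis) and replicate 2 (vertical axis); red and blue points passed the threshold in the fit on both arrays, grey points did not, and the dashed line marks equal differences. Genes that rose lie along the line up to Bcl3, Lcn2 and Prss56. Both axes share the same 50 lux mean and the colours the same fit, so part of that closeness is built in. The crystallins Cryaa and Crybb2 and the Y-linked Eif2s3y and Kdm5d lie far to the left, low on replicate 1 only.

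Glial reactivity and injury cytokine genes rose almost as a whole: of 26 listed and 23 measured members, 20 rose, 1 fell and 2 did not pass, with a median of 2.15 (2.12 on replicate 1 and 2.21 on replicate 2). With replicate 1 alone 17 rose, and with replicate 2 alone 21 rose and 1 fell. Among the ligands and their receptors, the endothelin gene Edn2 stood at 10.09 and 10.20 at 5000 lux, against 6.83, 7.35 and 8.36 at 50 lux. Its 50 lux arrays spread over more than 1 log2 unit but stayed below both 5000 lux arrays, and Edn2 rose 6.19-fold (adjusted p = 0.00038). Ednrb, the endothelin B receptor, was at 8.06 and 8.23 at 5000 lux, against 6.19, 6.19 and 6.24 at 50 lux, and rose 3.83-fold (adjusted p = 0.0015). Fgf2, a growth factor that protects photoreceptors, was at 4.95 and 4.76 at 5000 lux, against 2.25, 2.36 and 2.25 at 50 lux, and rose at least 1.81-fold (adjusted p = 0.00025, and 0.090 with values raised to log2 4). At least marks a bound: where every array of a group was at or below log2 4, that group was set to log2 4. Genes tested had to exceed log2 4 on at least 2 arrays. A gene dark on all 50 lux arrays was thus tested only through arrays of other groups and had little room to fall. The counts and medians of the rising lists include such genes. With values raised to log2 4, 19 glial reactivity, 14 interferon, 6 complement and class I and 4 chemokine list members rose. Clcf1, a ligand of the ciliary neurotrophic factor receptor, had a difference of 1.20 that did not pass (adjusted p = 0.071).

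The receptors of the interleukin-6 family did not move as one. Osmr, the oncostatin M receptor, stood at 8.74 and 8.79 at 5000 lux, against 6.66, 6.51 and 6.68 at 50 lux, a rise of 4.44-fold (adjusted p = 0.00032). Il6st, which encodes gp130, was at 8.93 and 9.54 at 5000 lux, against 8.22, 8.52 and 8.76 at 50 lux. It rose 1.66-fold (adjusted p = 0.034), with replicate 1 only just above the 50 lux arrays (adjusted p = 0.36 with replicate 1 alone and 0.0096 with replicate 2 alone). Lifr, the leukemia inhibitory factor receptor, had a difference of 0.11 (adjusted p = 0.51). Cntfr, the ciliary neurotrophic factor receptor, was the member that fell: 4.64 and 2.98 at 5000 lux, against 5.77, 5.13 and 5.30 at 50 lux (3.01-fold, adjusted p = 0.039). Most of that fall lay in replicate 2, and the call was lost with replicate 1 alone (adjusted p = 0.42). Tnfrsf12a, the receptor of the cytokine TWEAK, was at 5.81 and 5.43 at 5000 lux, against 4.50, 4.57 and 4.50 at 50 lux, and rose 2.14-fold (adjusted p = 0.0050).

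Downstream of these receptors, the transcription factors and the feedback inhibitor rose on both arrays. Stat3 was at 10.86 and 11.29 at 5000 lux, against 9.08, 9.35 and 9.62 at 50 lux, and rose 3.31-fold (adjusted p = 0.00012). Socs3, the inhibitor of gp130 signalling whose promoter is printed above, stood at 9.64 and 10.15 at 5000 lux, against 5.38, 5.12 and 5.54 at 50 lux. The groups lay over 4 log2 units apart, and Socs3 rose 23.4-fold (log2 change 4.55, SE 0.35, adjusted p = 8.0e-06). Bcl3, a nuclear cofactor of NF-κB, was at 7.21 and 7.51 at 5000 lux, against 2.21, 2.21 and 2.65 at 50 lux, a rise of at least 10.2-fold (adjusted p = 1.5e-06). Cebpd, a C/EBP transcription factor of the acute phase, stood at 11.64 and 11.74 at 5000 lux, against 7.83, 7.58 and 8.02 at 50 lux, and rose 14.7-fold (adjusted p = 1.5e-06). Its relative Cebpb rose 2.56-fold, with levels of 6.98 and 6.98 at 5000 lux and 5.81, 5.83 and 5.25 at 50 lux (adjusted p = 0.0020).

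Among the effectors, the intermediate filaments, protease inhibitors and acute-phase proteins of reactive glia rose. Lcn2, the iron-siderophore binding lipocalin, stood at 9.37 and 10.13 at 5000 lux, against 5.33, 4.83 and 4.84 at 50 lux, and rose 26.9-fold (log2 change 4.75, SE 0.40, adjusted p = 1.7e-05). S100a6, a calcium-binding protein, was at 10.89 and 11.11 at 5000 lux, against 7.13, 6.15 and 6.43 at 50 lux, and rose 21.5-fold (adjusted p = 4.0e-06). The serine protease inhibitor Serpina3n rose 10.5-fold, with levels of 8.39 and 8.05 at 5000 lux and 5.16, 4.35 and 4.98 at 50 lux (adjusted p = 4.0e-05). Timp1, an inhibitor of metalloproteinases, was at 5.35 and 5.74 at 5000 lux, against 2.27 on all 50 lux arrays, a rise of at least 2.92-fold (adjusted p = 0.00057). Vimentin (Vim), the filament that Müller glia always hold, was at 13.31 and 13.31 at 5000 lux, against 11.70, 11.40 and 11.62 at 50 lux (3.34-fold, adjusted p = 4.0e-06). Gfap, the filament that they gain on injury, was at 7.96 and 8.41 at 5000 lux, against 6.56, 6.04 and 5.99 at 50 lux. Gfap rose 3.96-fold (adjusted p = 0.0041), and its call was lost with replicate 1 alone (adjusted p = 0.064). Cp, the copper carrier ceruloplasmin, rose 5.88-fold (levels 12.12 and 12.31 at 5000 lux and 9.50, 9.85 and 9.62 at 50 lux, adjusted p = 3.3e-06), while another Cp probe set was called in the opposite direction. A2m and Cd44 rose 7.15- and 2.55-fold.

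**Figure D2:**
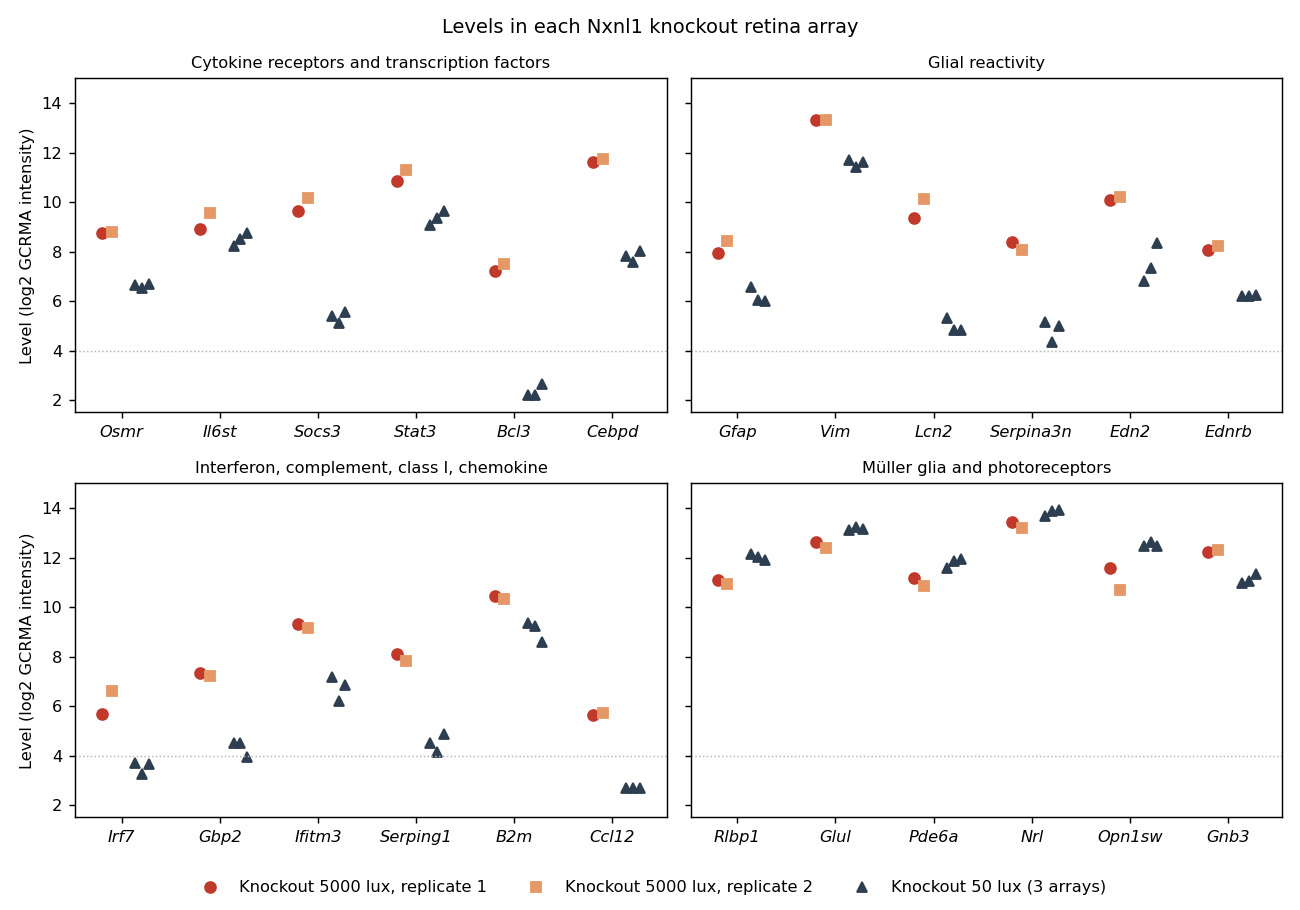
Level of 24 genes on each knockout array in log2 GCRMA intensity, with 5000 lux replicate 1 (circle) and replicate 2 (square) left of the 3 arrays at 50 lux (triangles); the dotted line marks log2 4. Both 5000 lux arrays lie above all 50 lux arrays for Socs3, Bcl3, Cebpd, Lcn2 and Gbp2, and below them for Rlbp1, Glul and Opn1sw, with Opn1sw lower on replicate 2 than on replicate 1.

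Interferon response genes rose on both arrays as well: of 22 listed and 19 measured members, 17 rose and none fell, with a median of 2.13 (1.91 on replicate 1 and 2.10 on replicate 2). With replicate 1 alone 12 rose, and with replicate 2 alone 15. Of the signal transducers, Stat2 was at 7.06 and 7.24 at 5000 lux, against 5.17, 6.13 and 5.40 at 50 lux, and rose 3.00-fold (adjusted p = 0.0023). Irf9, its DNA-binding partner, was at 8.70 and 9.23 at 5000 lux, against 6.30, 6.95 and 6.96 at 50 lux, and rose 4.69-fold (adjusted p = 0.00026). Irf7, the factor that amplifies the interferon response, was at 5.70 and 6.61 at 5000 lux, against 3.69, 3.25 and 3.68 at 50 lux, and rose at least 4.45-fold (adjusted p = 0.00013).

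Effectors of the interferon response rose as well. Ifitm3, a membrane protein that blocks virus entry, stood at 9.33 and 9.14 at 5000 lux, against 7.19, 6.19 and 6.87 at 50 lux, and rose 5.60-fold (adjusted p = 4.8e-05). Oasl2, a member of the oligoadenylate synthetase-like family, was at 5.48 and 5.98 at 5000 lux, against 2.43, 2.72 and 2.72 at 50 lux, a rise of at least 3.31-fold (adjusted p = 7.1e-05). Of the genes whose promoters are printed above, Gbp2, a guanylate-binding protein, was at 7.32 and 7.20 at 5000 lux, against 4.51, 4.51 and 3.94 at 50 lux, and rose 7.71-fold (adjusted p = 0.00020). Bst2, which tethers budding virus to the cell, was at 6.14 and 6.08 at 5000 lux, against 3.79, 3.99 and 4.16 at 50 lux, and rose 4.37-fold (adjusted p = 0.00045). Ifit3, which blocks translation of viral RNA, was at 6.95 and 6.66 at 5000 lux, against 5.85, 5.54 and 5.20 at 50 lux, and rose 2.42-fold (adjusted p = 0.0048). Xaf1 had a difference of 0.09 that did not pass (adjusted p = 0.77), and Iigp1, below log2 4 on all 5 arrays, did not pass either (adjusted p = 0.29).

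Complement and class I antigen presentation genes rose in 8 of 12 measured members (20 listed) with none falling, and their median was 1.26 (1.23 on replicate 1 and 1.29 on replicate 2). With replicate 1 alone 5 rose, and with replicate 2 alone 8. Serping1, the C1 inhibitor, stood at 8.09 and 7.81 at 5000 lux, against 4.50, 4.14 and 4.88 at 50 lux, and rose 10.9-fold (adjusted p = 1.0e-05). Cfi, the protease that cleaves C3b, was at 6.70 and 6.20 at 5000 lux, against 4.61, 3.28 and 3.29 at 50 lux, and rose 6.60-fold (adjusted p = 0.00020). In the class I pathway, the immunoproteasome subunit Psmb8 rose 3.69-fold (levels 6.19 and 6.32 at 5000 lux and 4.29, 4.68 and 4.15 at 50 lux, adjusted p = 0.00055). B2m, the beta-2 microglobulin that pairs with every class I heavy chain, was at 10.45 and 10.31 at 5000 lux, against 9.36, 9.23 and 8.58 at 50 lux, and rose 2.50-fold (adjusted p = 0.0028). The peptide transporter Tap1 was at 5.18 and 6.04 at 5000 lux, against 2.26, 2.58 and 2.59 at 50 lux, and rose at least 3.05-fold (adjusted p = 0.0086, and 0.11 with values raised to log2 4). Its call was lost with replicate 1 alone (adjusted p = 0.11). H2-D1, a class I heavy chain that shares sequence with other class I genes, rose 2.30-fold (adjusted p = 0.011), and H2-K1 had a difference of 0.78 that did not pass (adjusted p = 0.064).

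Of 8 chemokine, cytokine and adhesion genes measured (17 listed), 5 rose, with a median of 1.05, and 2 rose with replicate 1 alone against 4 that rose and 1 that fell with replicate 2 alone. Ccl12, a monocyte chemoattractant, stood at 5.66 and 5.71 at 5000 lux, against 2.68 on all 50 lux arrays, a rise of at least 3.21-fold (adjusted p = 1.9e-06). Vcam1, an adhesion molecule for leukocytes, was at 8.25 and 7.81 at 5000 lux, against 6.91, 6.41 and 6.60 at 50 lux, and rose 2.62-fold (adjusted p = 0.0015). Cxcl12 and Csf1 rose 2.00- and 2.08-fold, with their calls lost on replicate 1 alone (adjusted p = 0.17 and 0.20). Ccl2, another monocyte chemoattractant, was at 4.04 and 5.05 at 5000 lux, against 3.85, 4.06 and 4.29 at 50 lux, and its difference of 0.48 did not pass (adjusted p = 0.40).

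Immediate early and AP-1 genes rose in 8 of 16 measured members, with a median of 0.67, and in 3 with replicate 1 alone and 5 with replicate 2 alone. Without replicate 1 at 50 lux 5 rose. Junb, a component of AP-1, stood at 8.35 and 8.74 at 5000 lux, against 5.07, 5.32 and 5.09 at 50 lux, and rose 10.4-fold (adjusted p = 4.0e-05). Atf3, a stress-induced factor of the ATF family, was at 8.84 and 8.46 at 5000 lux, against 5.84, 5.88 and 6.71 at 50 lux, and rose 5.67-fold (adjusted p = 0.00019). Btg2, an antiproliferative early gene, was at 10.34 and 10.27 at 5000 lux, against 8.89, 9.19 and 9.44 at 50 lux, and rose 2.18-fold (adjusted p = 0.0059). Fos, the partner of Jun proteins, passed narrowly: 11.70 and 11.11 at 5000 lux, against 9.76, 10.20 and 10.51 at 50 lux (2.37-fold, adjusted p = 0.049). Fosl2, another member of the Fos family, had a difference of 0.23 that did not pass (adjusted p = 0.73).

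Stress and cell death genes moved in part. Of 11 apoptosis genes and p53 targets measured, 3 rose and none fell, with a median of 0.39, and 1 and 2 rose with replicates 1 and 2 alone, and 1 without replicate 3 at 50 lux. Gadd45b, which encodes a stress protein that binds MAP kinase kinases, stood at 7.37 and 7.85 at 5000 lux, against 4.56, 4.44 and 5.24 at 50 lux, and rose 7.29-fold (adjusted p = 8.0e-05). Tnfrsf1a, the receptor of tumour necrosis factor, rose 1.81-fold (adjusted p = 0.032), and Fas, a death receptor, stood at 3.58 and 4.08 at 5000 lux, against 3.50, 3.32 and 3.10 at 50 lux, close to the filter (adjusted p = 0.048). The calls of both were lost with replicate 1 alone (adjusted p = 0.19 and 0.45).

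Of 20 oxidative stress defence genes 4 rose and 1 fell, with a median of 0.05; with replicate 1 alone 1 rose, and with replicate 2 alone 3 rose and 1 fell. Hmox1, heme oxygenase 1, was at 4.60 and 3.92 at 5000 lux, against 2.88, 2.64 and 2.88 at 50 lux, a rise of at least 1.20-fold (adjusted p = 0.0070, and 0.49 with values raised to log2 4). The metallothionein gene Mt2 was at 10.04 and 10.26 at 5000 lux, against 9.19, 8.47 and 8.09 at 50 lux, and rose 2.96-fold (adjusted p = 0.0057). Mt1, its neighbour in the family, rose 2.01-fold (adjusted p = 0.018), and both calls were lost with replicate 1 alone (adjusted p = 0.070 and 0.12). Nfe2l2, the regulator of the antioxidant response, rose 1.40-fold (adjusted p = 0.033). Srxn1, which repairs oxidised peroxiredoxins, fell 1.46-fold (adjusted p = 0.032). None of the 17 thioredoxin-fold genes other than Nxnl1 and Nxnl2 passed in limma (0 at an unadjusted p under 0.05), and their median was -0.01. Of these the smallest p belonged to Txn2, the mitochondrial thioredoxin, with a difference of -0.29 (adjusted p = 0.17). Among 16 heat shock and unfolded protein genes, Hsph1, a chaperone of the HSP110 family, fell 1.39-fold (adjusted p = 0.047) and none rose. That call was lost with replicate 1 alone (adjusted p = 0.43), when any single 50 lux array was left out and with quantile normalization.

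Markers of microglia and macrophages split. Of 10 measured (19 listed), 2 rose and 1 fell, with a median of -0.02 (0.31 on replicate 1 and -0.33 on replicate 2). Each of the single-array fits called the same number of rises, 2, and replicate 2 alone called 2 falls against none for replicate 1. Lgals3, galectin 3, stood at 10.14 and 10.67 at 5000 lux, against 6.98, 5.95 and 5.72 at 50 lux, and rose 18.2-fold (adjusted p = 2.5e-05). Cd68, a lysosomal protein of phagocytes, was at 5.85 and 5.10 at 5000 lux, against 3.27, 3.17 and 3.13 at 50 lux, a rise of at least 2.78-fold (adjusted p = 0.00069). Ctss, a lysosomal protease, fell: 8.61 and 7.80 at 5000 lux, against 9.36, 9.19 and 9.03 at 50 lux (1.98-fold, adjusted p = 0.048), a call that was lost with replicate 1 alone (adjusted p = 0.41) and when any single 50 lux array was left out. Csf1r, the receptor that microglia need to live, had a difference of -1.03 that did not pass (adjusted p = 0.082), and Aif1, Itgam, P2ry12 and Tmem119 were below the filter. In whole retina, a change in the number of cells of a type and a change in RNA per cell cannot be told apart.

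**Figure D3:**
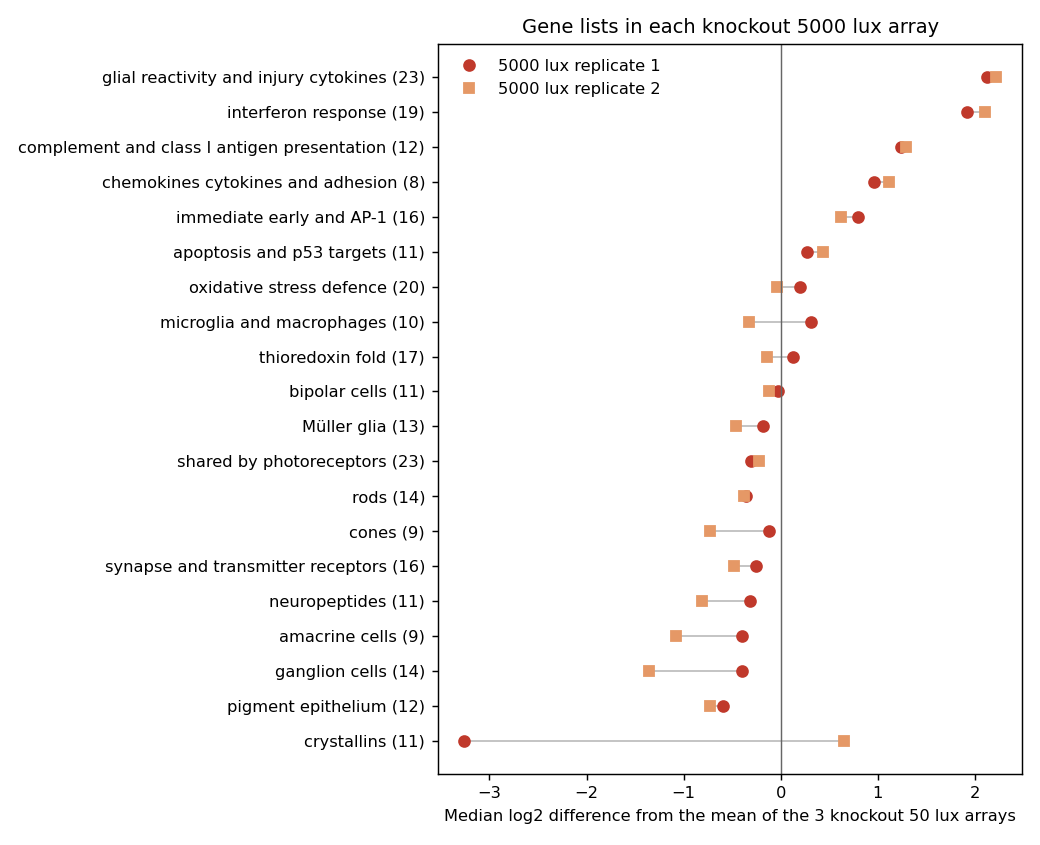
Median difference of each gene list from the mean of the 3 knockout 50 lux arrays, in log2, for 5000 lux replicate 1 (circle) and replicate 2 (square), with the number of genes measured in parentheses. The injury lists lie right of 0 at like values on both arrays, the ganglion and amacrine cell lists lie further left on replicate 2 (-1.36 and -1.08) than on replicate 1 (-0.40 and -0.40), and the crystallin list lies at -3.26 on replicate 1 and 0.65 on replicate 2.

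Rod genes fell in part. Of 14 rod genes measured (16 listed) 6 fell and none rose, and the median of -0.39 was alike on replicate 1 (-0.36) and replicate 2 (-0.38). None fell with replicate 1 alone and 5 with replicate 2 alone, and 1 fell without replicate 3 at 50 lux. When these 5 arrays were fitted alone or when arrays were weighted, none of the rod or amacrine cell genes and none of the ganglion cell genes passed. The same held for horizontal cell, bipolar cell, neuropeptide, glycolysis and heat shock genes. With the 5 arrays alone, no cone, shared photoreceptor, Müller glia, synapse or oxidative stress gene passed. With weights, 1 cone and 3 oxidative stress genes rose, and 1 shared photoreceptor, 1 Müller glia and 2 synapse genes fell. With the 5 arrays alone, 15 glial reactivity and 10 interferon genes still rose, against 20 and 17 in the main fit. The other rising lists kept fewer of their calls. Complement and class I kept 3 of 8 rises and immediate early genes 3 of 8. Chemokine list genes kept 1 of 5 and apoptosis genes 1 of 3. Cngb1, a subunit of the rod channel gated by cyclic GMP, stood at 10.22 and 10.18 at 5000 lux, against 10.98, 10.99 and 10.94 at 50 lux, and fell 1.71-fold (adjusted p = 0.0053). The phosphodiesterase subunit Pde6a was at 11.18 and 10.87 at 5000 lux, against 11.58, 11.87 and 11.96 at 50 lux, and fell 1.71-fold (adjusted p = 0.026), and Pde6b fell 1.31-fold (adjusted p = 0.027). The transducin subunit Gnat1 and arrestin Sag had differences of -0.09 and -0.13 that did not pass (adjusted p = 0.53 and 0.42). Of 23 genes shared by rods and cones, 3 fell (Tulp1, Cdhr1 and Rom1, 1.28- to 1.52-fold) and 1 rose, Impg1 of the matrix between photoreceptors (1.32-fold, adjusted p = 0.034), with a median of -0.21. None of these 23 passed with replicate 1 alone, and 1 did without replicate 3 at 50 lux.

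Cone genes moved in both directions. Of 9 measured (12 listed), 2 fell and 1 rose, with a median of -0.12 on replicate 1 and -0.73 on replicate 2. Replicate 1 alone called 1 rise and no fall, and replicate 2 alone 1 rise and 4 falls. Opn1sw, the short-wavelength opsin, stood at 11.59 and 10.69 at 5000 lux, against 12.48, 12.64 and 12.45 at 50 lux. Both arrays lay below the 50 lux range and replicate 2 lay lower by 0.89; Opn1sw fell 2.61-fold (adjusted p = 0.040), and was not called with replicate 1 alone (adjusted p = 0.34). Cngb3, a subunit of the cone channel, was at 5.68 and 5.24 at 5000 lux, against 6.46, 6.44 and 6.04 at 50 lux, and fell 1.81-fold (adjusted p = 0.018). Gnb3, the transducin subunit of cones that some bipolar cells also make, was at 12.21 and 12.31 at 5000 lux, against 10.98, 11.06 and 11.34 at 50 lux, and rose 2.20-fold (adjusted p = 0.00023). Opn1mw, the middle-wavelength opsin, had a difference of 0.28 that did not pass (adjusted p = 0.39).

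Markers of resting Müller glia fell in part. Of 13 measured 4 fell and none rose, with a median of -0.18 on replicate 1 and -0.47 on replicate 2, and 1 fell with replicate 1 alone against 6 with replicate 2 alone. Without replicate 1 or 2 at 50 lux 2 fell. Rlbp1, the retinaldehyde-binding protein of the visual cycle, stood at 11.08 and 10.94 at 5000 lux, against 12.16, 12.01 and 11.92 at 50 lux, and fell 2.03-fold (log2 change -1.02, SE 0.12, adjusted p = 0.00017), also with each array alone (adjusted p = 0.0051 and 0.0013). Glul, glutamine synthetase, was at 12.65 and 12.39 at 5000 lux, against 13.13, 13.23 and 13.14 at 50 lux, and fell 1.57-fold (adjusted p = 0.047; 0.31 with replicate 1 alone). Abca8a, a lipid transporter, and Apoe, the apolipoprotein, each fell 1.61-fold (adjusted p = 0.024 and 0.029). Slc1a3, Aqp4 and Sox9 had differences of 0.13, 0.17 and -0.05 that did not pass (adjusted p = 0.46, 0.52 and 0.85).

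Markers of inner retinal neurons were lower chiefly on replicate 2. Of 14 ganglion cell genes measured (16 listed) 6 fell, with a median of -0.40 on replicate 1 and -1.36 on replicate 2; none passed with replicate 1 alone and 11 fell with replicate 2 alone. Without replicate 1 at 50 lux 1 fell and 1 rose, and without replicate 2 at 50 lux 2 fell. The mean level of the list was 8.70 on replicate 1 and 7.78 on replicate 2, against 9.40, 9.01 and 8.74 at 50 lux, so replicate 1 lay just under the lowest 50 lux array. Thy1, a surface glycoprotein of ganglion cells, stood at 8.62 and 7.60 at 5000 lux, against 10.38, 9.50 and 9.25 at 50 lux, and fell 3.04-fold (adjusted p = 0.014; 0.19 with replicate 1 alone). Sncg, gamma-synuclein, was at 8.97 and 7.67 at 5000 lux, against 9.85, 9.53 and 9.18 at 50 lux (2.29-fold lower, adjusted p = 0.029), and Rbpms, an RNA-binding protein of ganglion cells, fell 2.11-fold (adjusted p = 0.036).

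Amacrine cell genes were lower on replicate 2 as well. Of 9 measured (13 listed) 5 fell, none with replicate 1 alone and 8 with replicate 2 alone, with medians of -0.40 and -1.08, and none fell without replicate 1 at 50 lux. Slc6a9, a glycine transporter, was at 8.41 and 8.31 at 5000 lux, against 9.28, 8.90 and 8.94 at 50 lux, and fell 1.60-fold (adjusted p = 0.019). Gad2, which makes GABA, was at 6.85 and 6.10 at 5000 lux, against 7.62, 7.48 and 7.27 at 50 lux, and Calb2, calretinin, at 10.73 and 9.81 at 5000 lux, against 11.41, 11.30 and 11.05 at 50 lux; both fell 1.97-fold (adjusted p = 0.023 and 0.026). Of 4 horizontal cell genes, Septin4 and Lhx1 fell (1.48- and 1.93-fold), neither with replicate 1 alone nor without replicate 1 at 50 lux, and Lhx1 not with replicate 2 alone. Of 11 bipolar cell genes 1 fell, Vsx1, a transcription factor of cone bipolar cells, at 6.29 and 5.27 at 5000 lux, against 6.95, 6.96 and 6.52 at 50 lux (2.04-fold, adjusted p = 0.026; 0.32 with replicate 1 alone), and the median of the list was -0.05.

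Genes of synaptic proteins of neurons fell in part, and of the neuropeptide genes 1 fell. Of 16 synapse and transmitter receptor genes 6 fell and none rose, with a median of -0.37, none with replicate 1 alone and 6 with replicate 2 alone, and 3 fell without replicate 1 at 50 lux. Syp, synaptophysin, stood at 11.37 and 11.29 at 5000 lux, against 12.01, 11.89 and 12.07 at 50 lux, and fell 1.58-fold (adjusted p = 0.0038). Cplx2, a complexin that controls vesicle fusion, was at 7.62 and 7.20 at 5000 lux, against 8.89, 8.53 and 8.52 at 50 lux, and fell 2.36-fold (adjusted p = 0.0064). Sv2a, a vesicle glycoprotein, fell 1.78-fold (adjusted p = 0.0093). Of 11 neuropeptide genes, Vgf, an activity-regulated precursor, fell 3.00-fold (5.68 and 5.57 at 5000 lux, against 7.58, 7.03 and 7.02 at 50 lux, adjusted p = 0.0064). Vgf was the only member past the threshold in the fit that held both 5000 lux arrays together, in which 7.81% of all genes fell. The median of the list was -0.31 on replicate 1 and -0.81 on replicate 2.

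In the other lists few members passed. Of 19 glycolysis and glucose uptake genes, the neuronal glucose transporter Slc2a3 and the lactate dehydrogenase subunit Ldhb fell (1.62- and 1.68-fold) and the phosphofructokinase subunit Pfkp rose 1.37-fold. None of these 19 passed with replicate 1 alone or without replicate 1 at 50 lux, and with replicate 2 alone 7 fell and none rose. None of 15 cholesterol genes and none of 15 circadian genes passed in limma (2 of each list at an unadjusted p under 0.05; medians -0.23 and 0.07); their smallest p belonged to Fdft1 (-0.43, adjusted p = 0.092) and Hlf (-0.56, adjusted p = 0.056). Of 14 extracellular matrix genes measured (20 listed), 1 rose and 1 fell, with a median of -0.10, where 4.60% of all genes rose and 7.81% fell. Both were type IV collagen chains, and the chains Col4a1, Col4a2 and Col4a4 were measured and did not pass. Col4a3 stood at 5.13 and 4.85 at 5000 lux, against 7.56, 7.30 and 7.91 at 50 lux, and fell 6.06-fold (log2 change -2.60, SE 0.32, adjusted p = 0.00031). Col4a5 was at 8.04 and 8.30 at 5000 lux, against 6.63, 6.64 and 7.26 at 50 lux, and rose 2.50-fold (adjusted p = 0.0019). Of 9 endothelial and pericyte genes the receptor Kdr rose 1.59-fold (adjusted p = 0.013).

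Markers of tissues next to the retina were measured as well. None of 12 pigment epithelium genes passed in limma (6 at an unadjusted p under 0.05), with a median of -0.69; with replicate 2 alone 2 fell, and without replicate 3 at 50 lux 1 rose. Rpe65, the isomerohydrolase of the visual cycle, had the smallest p, at 7.75 and 7.16 at 5000 lux, against 9.80, 8.87 and 8.54 at 50 lux (log2 difference -1.62, adjusted p = 0.059). The mean level of the list was 6.70 and 6.37 at 5000 lux, against 7.64, 6.78 and 6.89 at 50 lux. None of 11 crystallins passed (0 at an unadjusted p under 0.05), Crybb2 having the smallest p (log2 difference -3.12, SE 2.55, adjusted p = 0.44). Grifin, the 1 lens fibre gene of 7 measured, was at 2.23 and 2.78 at 5000 lux, against 4.42, 2.23 and 2.77 at 50 lux, and Bfsp1, Bfsp2, Mip, Lim2 and Gja3 were below the filter. Of the blood genes, Hba-a2, an alpha globin, was measured, at 4.13 on both 5000 lux arrays, against 2.95, 3.15 and 3.23 at 50 lux, where every array was below log2 4 (adjusted p = 0.0012, and 0.31 with values raised to log2 4). The part of these tissues in the results above was not tested.

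Of the 20 genes with the largest rises, 11 are members of the lists above. In 9 of the 20 every 50 lux array was at or below log2 4, so that their place among the 20 rests on values in the background. Prss56, a trypsin-like serine protease of Müller glia, stood at 8.33 and 9.54 at 5000 lux, against 5.04, 2.78 and 4.88 at 50 lux, and rose 26.1-fold (adjusted p = 0.0023). Nupr1, a stress-inducible nuclear protein, was at 8.18 and 8.30 at 5000 lux, against 5.82, 4.23 and 4.83 at 50 lux, and rose 9.72-fold (adjusted p = 0.00026). Gbp2b, a guanylate-binding protein close in sequence to others of its family, rose 9.33-fold (adjusted p = 2.5e-05). The cardiac troponin T gene Tnnt2 was at 6.88 and 7.27 at 5000 lux, against 3.06, 3.01 and 3.06 at 50 lux, a rise of at least 8.41-fold (adjusted p = 3.3e-06). Tubb6, a tubulin chain, rose at least 6.35-fold (6.23 and 7.11 at 5000 lux, against 3.69, 3.18 and 3.18 at 50 lux), and Steap4, a metalloreductase induced by cytokines, at least 4.21-fold (5.97 and 6.18 at 5000 lux, against 2.82, 3.13 and 2.79 at 50 lux). Lad1 (at least 6.79-fold), Spidr (at least 7.48-fold) and 2900024J01Rik (at least 7.86-fold) completed the set. All of the 20 but Tap1 passed with each 5000 lux array alone.

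The 20 largest falls were smaller and depended more on replicate 2. Glb1l3, a galactosidase-like gene, stood at 3.83 and 5.0 at 5000 lux, against 7.76, 7.40 and 7.29 at 50 lux, and fell 8.35-fold (adjusted p = 0.00051). Mir670hg, a host transcript of a microRNA, was below log2 4 on both 5000 lux arrays (2.94 and 3.15), against 6.23, 5.59 and 5.78 at 50 lux, and fell at least 3.65-fold (adjusted p = 4.8e-05). Hcls1, a cytoskeletal adaptor known from blood cells, was at 6.42 and 6.60 at 5000 lux, against 8.97, 8.54 and 9.19 at 50 lux, and fell 5.23-fold (adjusted p = 0.00018). Mc1r, the melanocortin 1 receptor, was at 4.42 and 4.82 at 5000 lux, against 7.04, 6.52 and 6.55 at 50 lux, and fell 4.23-fold (adjusted p = 0.00014). These 4, with Col4a3, Ctxn1, Stard9, Rgs13, Etnppl and Trarg1, passed with each 5000 lux array alone.

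The remaining 10 of the largest falls were not called with replicate 1 alone. Fam107a, an actin-binding stress protein, was at 6.61 and 4.67 at 5000 lux, against 7.61, 8.10 and 8.48 at 50 lux, and fell 5.37-fold (adjusted p = 0.0064; 0.095 with replicate 1 alone). Slc6a11, a GABA transporter of glia, was at 7.44 and 5.81 at 5000 lux, against 8.62, 8.29 and 8.61 at 50 lux (3.70-fold lower, adjusted p = 0.027; 0.32 with replicate 1 alone). Crh, the corticotropin-releasing hormone, fell at least 2.31-fold (3.61 and 2.90 at 5000 lux, against 5.84, 5.28 and 4.51 at 50 lux). The others were Fbxl19, Nt5dc2, Sptssb, Kdm4a, Spc25, Clic6 and Thy1, with falls of 3.04- to 3.57-fold. By the rule that chose them, each of these 10 lay below all 50 lux arrays on both 5000 lux arrays.

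Where did the light response of the knockout differ from that of the wild type? The difference of the 2 responses, (knockout 5000 minus 50 lux) minus (wild-type 5000 minus 50 lux), was tested in the same fit. No probe set was higher in limma (0.00%; 788 at an unadjusted p under 0.05) and 6 were lower (0.0257% of 23320), and over genes 4 were lower (0.0366%) and none higher (220 at an unadjusted p under 0.05). All 4 stood close to the wild-type level at 5000 lux and higher than in wild type at 50 lux. Edn2 was at 10.09 and 10.20 in knockout and 10.49, 10.36 and 10.26 in wild-type retinas at 5000 lux, and at 6.83, 7.35 and 8.36 in knockout and 3.57 and 3.89 in wild-type retinas at 50 lux. Both wild-type arrays at 50 lux lay below log2 4. With values raised to log2 4 the difference of the responses was -3.74 (SE 0.47, adjusted p = 0.0095), a bound. Nudt6, a Nudix hydrolase encoded opposite Fgf2, was at 10.92 and 10.69 in knockout and 11.20, 11.01 and 11.08 in wild-type retinas at 5000 lux, and at 8.50, 8.87 and 8.77 in knockout and 6.46 and 6.36 in wild-type retinas at 50 lux (difference -2.59, SE 0.20, adjusted p = 0.00022).

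Cebpd and Sox30 had the same arrangement. Cebpd was at 11.64 and 11.74 in knockout and 11.87, 11.64 and 11.86 in wild-type retinas at 5000 lux, and at 7.83, 7.58 and 8.02 in knockout and 5.88 and 5.02 in wild-type retinas at 50 lux (difference -2.46, SE 0.33, adjusted p = 0.022). Its call was lost in 6 of 10 fits that left out 1 array, with adjusted p up to 0.13 without 5000 lux replicate 2 of the knockout. Sox30, a SOX transcription factor known from the testis, was at 9.33 and 9.31 in knockout and 9.42, 9.65 and 9.64 in wild-type retinas at 5000 lux, and at 7.39, 7.60 and 7.72 in knockout and 5.94 and 6.33 in wild-type retinas at 50 lux (difference -1.70, SE 0.19, adjusted p = 0.0057). Edn2, Nudt6 and Sox30 passed in all 10 such fits. The other 2 probe sets, of Lrrc2 and Myo5b, are dimmer ones of their genes. Below the threshold, the smallest p among genes belonged to Lrrc2 (-1.43, adjusted p = 0.067), Btc, an epidermal growth factor receptor ligand (-1.35, adjusted p = 0.10), and, on the higher side, 4933439C10Rik (1.21, adjusted p = 0.079). Nxnl2 had a difference of 0.86 (adjusted p = 0.15). Members of the glial list other than Edn2 and Cebpd did not pass, and 21 of 23 lay below 0 (median -0.64), as did 19 of 19 interferon genes (median -0.76, none passing, 7 at an unadjusted p under 0.05); over all genes 67.1% lay below 0, with a median of -0.12.

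**Figure D4:**
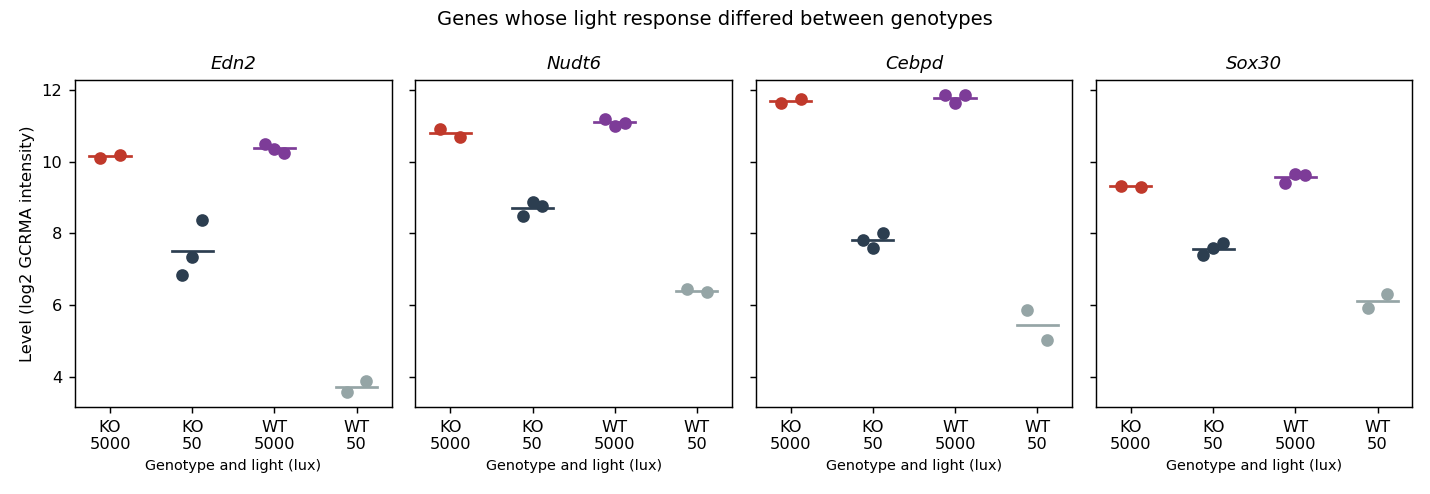
Level of Edn2, Nudt6, Cebpd and Sox30 in log2 GCRMA intensity on each array (points) with the group mean (bar), for knockout (KO) at 5000 and 50 lux and wild type (WT) at 5000 and 50 lux. At 5000 lux the genotypes lie within 0.5 of each other in mean, and at 50 lux the knockout lies above the wild type in each gene.

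Knockout retinas at 5000 lux were also set against those at 2500 lux, a contrast with no 50 lux array in it. Of 10916 genes 13 were lower at 5000 lux (0.119%) and none was higher in limma (0.00%; 646 at an unadjusted p under 0.05); over probe sets 17 were lower and 1 higher (0.0729% and 0.00429%). With replicate 1 alone no gene passed (964 at an unadjusted p under 0.05), and with replicate 2 alone 37 genes were lower and 7 higher (0.339% and 0.0641%). Tnfrsf12a, the TWEAK receptor, stood at 4.50, 4.57 and 4.50 at 50 lux, at 7.31, 7.44 and 7.04 at 2500 lux and at 5.81 and 5.43 at 5000 lux, 3.13-fold lower than at 2500 lux (adjusted p = 0.013). Ccl2 was at 3.85, 4.06 and 4.29 at 50 lux, at 7.01, 6.94 and 7.76 at 2500 lux and at 4.04 and 5.05 at 5000 lux, 6.44-fold lower than at 2500 lux (adjusted p = 0.016). For both, the 5000 lux arrays lay between the other doses or among the 50 lux arrays.

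On the higher side the smallest p belonged to Glb1l2, whose brightest probe set did not pass (1.04, adjusted p = 0.064). Hmox1, Aldh1a3, Myc, Ifitm1 and Hmga2 were dark at 50 lux. Hmox1 was at 2.88, 2.64 and 2.88 at 50 lux, at 6.02, 6.25 and 6.72 at 2500 lux and at 4.60 and 3.92 at 5000 lux, 4.19-fold lower than at 2500 lux (adjusted p = 0.016). Aldh1a3, which makes retinoic acid, stood at 2.21 and 2.22 at 5000 lux, against 4.20, 5.31 and 5.72 at 2500 lux, at least 2.11-fold lower (adjusted p = 0.016). Myc, a growth-promoting transcription factor, was at 2.73 on both 5000 lux arrays, against 4.50, 5.61 and 5.03 at 2500 lux, at least 2.07-fold lower (adjusted p = 0.016). Ifitm1, an interferon-induced membrane protein, and Hmga2, a chromatin architectural protein, were at least 1.76- and 2.36-fold lower at 5000 lux (adjusted p = 0.016 and 0.016). With values raised to log2 4 the calls of Aldh1a3, Myc and Ifitm1 were lost (adjusted p = 0.17, 0.091 and 0.15). Penk, the precursor of enkephalins, was at 6.69, 5.75 and 6.33 at 50 lux, at 7.25, 7.61 and 7.62 at 2500 lux and at 5.58 and 5.53 at 5000 lux, 3.84-fold lower than at 2500 lux (adjusted p = 0.013) and below all arrays at 50 lux. Mpzl1, a receptor of the immunoglobulin family, and Hecw2, a ubiquitin ligase, were 2.17- and 2.90-fold lower than at 2500 lux. Lrrfip1, Ifit2 and Tgif2 were the other genes past the threshold, named here because they complete the 13.

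The gene lists lay the same way without single members passing in most cases. The mean level of the glial list was 6.27 to 6.46 at 50 lux, 9.38 to 9.53 at 2500 lux and 8.65 and 8.79 at 5000 lux. The interferon list had mean levels of 4.46 to 4.62 at 50 lux, 7.31 to 7.45 at 2500 lux and 6.33 and 6.54 at 5000 lux. In both lists the 5000 lux arrays lay between the other doses without overlap. Of 23 glial genes 22 were lower at 5000 than at 2500 lux (median -0.70), of which Tnfrsf12a passed, and of 19 interferon genes all 19 were lower (median -0.81), of which Ifit2 passed; over all genes 53.8% were lower, with a median of -0.02. Rod genes lay the other way, with a mean level of 12.7 to 12.9 at 50 lux, 12.0 to 12.2 at 2500 lux and 12.5 at 5000 lux. All 14 were higher at 5000 than at 2500 lux (median 0.36), and none passed in limma (10 at an unadjusted p under 0.05).

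**Figure D5:**
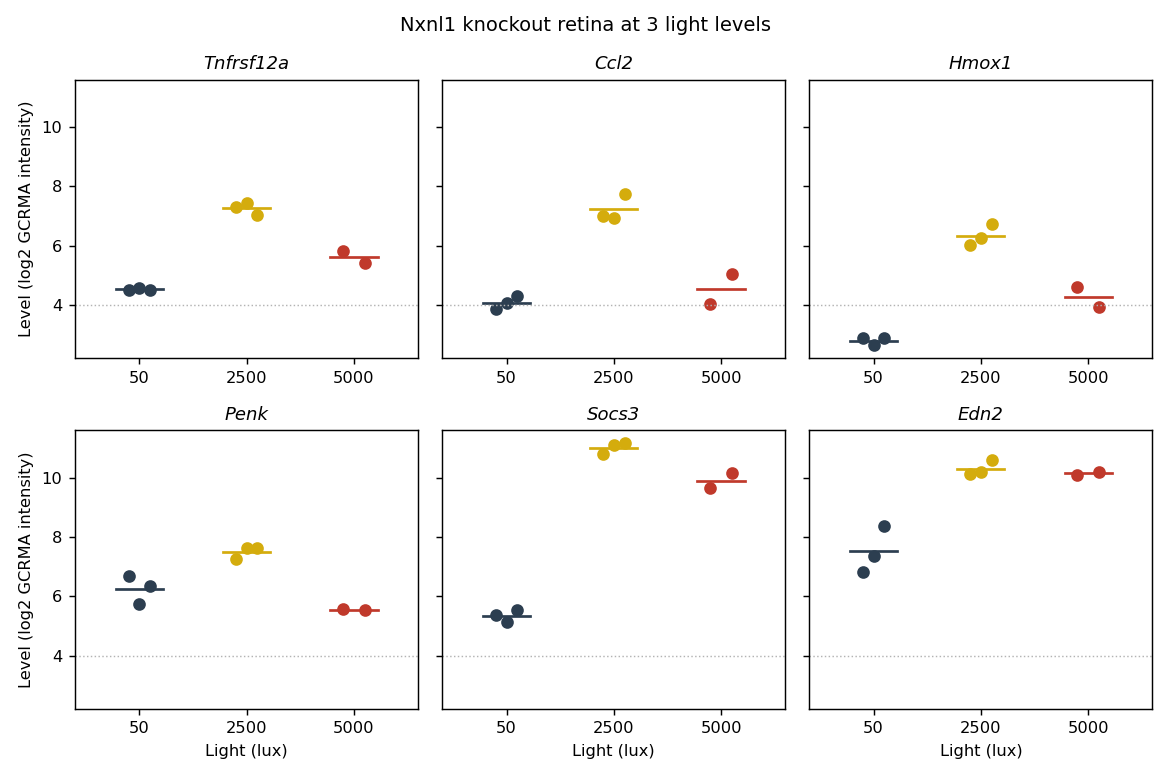
Level of 6 genes in knockout retinas at 50, 2500 and 5000 lux in log2 GCRMA intensity, with a point for each array and a bar for each mean; the dotted line marks log2 4. Tnfrsf12a, Ccl2 and Hmox1 peak at 2500 lux, Penk is lowest at 5000 lux, Socs3 is lower at 5000 than at 2500 lux, and Edn2 lies near 10 at both higher doses.

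The genes that set the 2 arrays at 5000 lux apart were named by the size of that difference, as a description. Higher on replicate 2 were, after Eif2s3y, Uty and Kdm5d, 7 crystallins: Crygs, Cryba1, Cryaa, Crybb2, Cryba2, Crybb1 and Crybb3. Cryaa stood at 4.60 and 10.07 at 5000 lux, against 9.70 to 11.46 at 50 lux, and Crybb2 at 3.04 and 8.46 at 5000 lux, against 10.09, 8.16 and 8.37 at 50 lux, so replicate 2 lay among or near the 50 lux arrays and replicate 1 far below them. Higher on replicate 1, after Xist, were Ddit4, Eml2, Nufip2, Max, Cpne4, Rnd1, Pcp4l1, Fam107a and Lmnb1. Ddit4, a stress-induced inhibitor of mTOR signalling, was at 10.02 and 7.34 at 5000 lux, against 10.01, 9.97 and 10.21 at 50 lux. Max, the partner of Myc, was at 8.87 and 6.54 at 5000 lux, against 9.21, 9.41 and 9.10 at 50 lux, and Pcp4l1 at 6.20 and 4.25 at 5000 lux, against 7.07, 6.75 and 5.97 at 50 lux. Across all genes replicate 2 lay below replicate 1 in 63.5%, and in all 14 ganglion cell genes, all 13 Müller glia genes, all 11 neuropeptide genes and all 9 amacrine cell genes, against 4 of 23 glial reactivity genes and 8 of 19 interferon genes.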

How the data were processed

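RNA of 16 mouse retina samples had been hybridised to Affymetrix arrays. The authors deposited 1 table of linear intensity values for 45037 probe sets, made with GCRMA per the submitters' processing notes, with the version not stated in the sources used here. GCRMA corrects the background and normalises across arrays. Values were taken to log2. Probe sets above log2 4 (intensity 16) on at least 2 arrays were tested (23320), and the brightest one with a single symbol stood for a gene (10916).

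A group-means model over 16 arrays and 6 groups was fitted with limma 3.58.1 (R 4.3.3), which left 10 residual degrees of freedom, and p-values were adjusted by Benjamini-Hochberg over all probe sets tested, at 0.05. All adjusted p-values are limma's. The scripts were tested on simulated data. The number of arrays limits the precision.

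The groups, lists and tests were chosen with earlier results of these data known. Named genes are Nxnl1, Nxnl2, the 20 largest rises and falls without overlap between the groups, the 3 smallest p in each list, members against their list, the 10 smallest p in each direction of the other contrasts, and the 10 largest differences each way between the 2 arrays at 5000 lux. Further list members were chosen after their values were seen. Alternatives were array medians, quantile normalization, other filters, a floor, the groups compared only, an intensity trend, array weights, a replicate block and leaving out each array.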

Additional observations from a re-analysis of the deposited data

Results flagged for a closer look

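The light response at 5000 lux differed between the genotypes by a test of the difference itself at 6 probe sets, all with a lower log2 change in the knockout. The difference of the log2 changes, knockout minus wild type, was -2.59 for Nudt6, -2.46 for Cebpd and -1.70 for Sox30. It was -1.68 for a second probe set of Lrrc2, whose brightest probe set did not pass. Edn2 was below log2 4 on both wild-type arrays at 50 lux, and its difference with values raised to log2 4 was -3.74, a bound. A second probe set of Myo5b lay below log2 4 on every array of both knockout groups and of wild type at 50 lux, and with values raised to log2 4 its difference was -0.34 and did not pass in limma. No group of this comparison holds 4 or more arrays, so single arrays were not tested for standing apart.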

How the results depend on the processing

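At 5000 against 50 lux, 2663 probe sets passed in the knockout. That count was 1526 with no filter, 182 with only the groups compared, 730 with array weights and 4613 with the replicate block, and leaving out 1 array gave 575 to 4411, the lowest without 5000 lux replicate 2 and the highest without replicate 1. Array medians, quantile normalization, a filter at log2 6, a floor at log2 4 and an intensity trend gave 2511 to 2797. The difference from the wild-type response passed at 6 probe sets, against 39 with no filter and 1 with only the groups compared, and at 4 to 14 without 1 array. The difference from 2500 lux passed at 18, against 32 with array medians, 10 with a filter at log2 6, 0 with only the groups compared (which leaves 3 residual degrees of freedom) and 1 with array weights, and at 0 to 103 without 1 array, the 0 without 5000 lux replicate 2, where 1891 had an unadjusted limma p below 0.05. Of 131 named results past the threshold, 64 kept their call without 5000 lux replicate 2, 76 with array weights and 45 with only the groups compared; none turned its direction. Same-numbered arrays of the 2 knockout groups deviated together at r = 0.41 for number 1 and -0.001 for number 2. Over all groups r ran from -0.24 to 0.69, with 21 of 36 same-numbered pairs over 0.1. The highest was between the number 1 arrays of knockout and wild type at 5000 lux. The main fit did not pair the samples by number, and whether the numbers mark shared handling was not tested. With the replicate block 130 of 131 calls were kept, 8 amacrine cell genes fell against 5, 3 pigment epithelium genes fell and 1 rose against none, and 2 cholesterol genes fell against none. With values raised to log2 4, 9 of the named calls were lost, those of Tap1, Fgf2, Fos, Hmox1, Fas and Hba-a2 at 5000 against 50 lux and of Ifitm1, Myc and Aldh1a3 at 5000 against 2500 lux. The causes of these shifts were not tested.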
